A study of Mus musculus with 8 samples.

Results

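Chemokines that draw neutrophils and monocytes into tissue were examined as a group of 6 genes in mouse islets: *Cxcl1*, *Cxcl2*, *Ccl2*, *Ccl7*, *Ccl20* and *Cx3cl1*. They are 6 of the 30406 genes listed in every library. The genes were taken by name, and *Cxcl1* and *Cxcl2* were chosen by their levels in these data with and without a nitric oxide synthase inhibitor, which moved differently in β-cells and other endocrine cells. The response of these 2 genes to the inhibitor in endocrine cells is therefore described without a test.

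Islets of male C57BL6/J mice, 12 to 16 weeks old, were pooled from 10 mice per replicate, split over 4 conditions and cultured for 18 h, and 2 such pools gave 8 libraries. The islets were untreated, or received 10 U/mL interleukin-1β with 150 U/mL interferon-γ (called cytokines here), the same cytokines with 2 mM NMMA (N-monomethyl-arginine, which blocks nitric oxide synthases), or 2 mM NMMA alone. The labels name no transgene and give the strain as C57BL/6 and the tissue as pancreas. The 4 libraries of a replicate shared a pool of islets. RNA was captured from single cells in droplets, and each captured molecule was counted once by its molecular identifier (UMI). Intact islets were treated and then dispersed with trypsin, so every cell class met the agents in the presence of the others.

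Chemokines are small secreted proteins that bind G protein-coupled receptors on leukocytes and guide their migration. CXCL1 and CXCL2 carry the ELR motif and act on CXCR2 of neutrophils, CCL2 and CCL7 act on CCR2 of inflammatory monocytes, CCL20 acts on CCR6 of lymphocytes and dendritic cells, and CX3CL1 (fractalkine) is made as a membrane-bound ligand of CX3CR1 that is released by ADAM proteases. Interleukin-1β is a classical inducer of these genes through NF-κB, and the short life of their mRNAs is set in part by RNA-binding proteins such as tristetraprolin (*Zfp36*) and the endonuclease regnase-1 (*Zc3h12a*).

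In GENCODE M21 (GRCm38, the build that the labels give as mm10), *Cxcl1* (ENSMUSG00000029380) lies at chr5:90891241-90893115 and *Cxcl2* (ENSMUSG00000058427) at chr5:90903871-90905938, 10.8 kb apart. *Ccl2* (ENSMUSG00000035385) lies at chr11:82035571-82037453 and *Ccl7* (ENSMUSG00000035373) at chr11:82045712-82047525, 8.26 kb apart. *Ccl20* (ENSMUSG00000026166) lies at chr1:83116766-83119167 and *Cx3cl1* (ENSMUSG00000031778) at chr8:94772009-94782427, and all 6 genes are on the plus strand. Promoters of 4 members were matched by symbol in RefSeq (GRCm38.p6), with none for *Ccl2* and *Ccl7*. The 100 bases before each start site are shown. *Cxcl1*, *Cxcl2* and *Ccl20* rose in β-cells with cytokines, as did *Ccl2*. The level of *Cx3cl1* in β-cells stayed between 1.14 and 2.02 CPM (UMIs of the gene per 1000000) in every library, but *Cx3cl1* rose in endothelial cells with cytokines. Capitals mark matches to the κB consensus on either strand, which 8.18% of 27025 RefSeq promoters of 300 bases hold. The *Cxcl1* window is chr5:90891145-90891244, the *Cxcl2* window chr5:90903799-90903898, the *Ccl20* window chr1:83116666-83116765 and the *Cx3cl1* window chr8:94772080-94772179, each on the plus strand. These start sites are those of RefSeq and differ from the gene starts of GENCODE for some members.
Cxcl1: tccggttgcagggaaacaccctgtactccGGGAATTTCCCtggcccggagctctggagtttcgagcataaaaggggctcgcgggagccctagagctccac
Cxcl2: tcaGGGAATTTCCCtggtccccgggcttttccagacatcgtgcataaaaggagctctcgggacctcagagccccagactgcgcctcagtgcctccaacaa
Ccl20: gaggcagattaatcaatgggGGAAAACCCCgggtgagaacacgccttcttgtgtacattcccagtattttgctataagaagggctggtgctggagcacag
Cx3cl1: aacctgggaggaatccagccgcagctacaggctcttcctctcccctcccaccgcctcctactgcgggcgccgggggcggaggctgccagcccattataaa

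*Cxcl1* and *Cxcl2* share the match GGGAATTTCC, which begins at base -71 of *Cxcl1* and base -97 of *Cxcl2* before the start site, and the opposite strand matches with a shift of 1 base. The match of *Ccl20* is on the minus strand at base -80, and the 300 bases of *Cx3cl1* hold none. These matches describe the letters of the promoters and were not tested as binding sites.

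Of 17426 barcodes, 10876 (62.4%) passed the limits on detected genes and mitochondrial UMIs, and libraries held 26549922 to 50731370 UMIs. Cells were clustered without the 6 members and their list of related attractants, and named from markers: 6355 β-cells, 674 α-cells, 337 δ-cells, 347 macrophages, 282 endothelial cells and 215 mesenchymal cells. The named classes held all their markers in every library with the exception of *Pdgfra*, which was at 0 in mesenchymal cells of replicate 1 with cytokines and NMMA. δ-cells of replicate 1 with cytokines numbered 9, under the minimum of 10, so the cytokine condition of δ-cells rests on 13 cells of replicate 2, and its tests take the spread from the other groups, as if that library varied like them. Any 2 libraries shared at most 2 cell barcodes. Levels below are CPM, the UMIs of a gene per 1000000 UMIs of the class in a library, scaled by the TMM method within each class. Levels of different classes are therefore not on the same scale. Differences between conditions are log2 changes of edgeR's quasi-likelihood test, with standard errors (SE) and p adjusted over all genes of the class.

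Clusters followed the conditions in 4 of the 6 classes, so their comparisons are also comparisons of clusters. Untreated β-cells lay mostly in a cluster led by *Mafa* in replicate 1 (1621 cells) and in one led by *Glp1r* in replicate 2 (485 cells), and those with cytokines in clusters led by *Il4i1* (1036) and *Cfb* (430). Endothelial cells of the untreated libraries (47 and 50) lay in a cluster led by *Fabp4*. Those with cytokines (14 of 15 and 23 of 23) and with cytokines and NMMA (14 and 33) lay in a cluster led by *Timp3*, whose 10 leading genes held 0 of the class markers, while those of the *Fabp4* cluster held 4. α- and δ-cells with cytokines, with or without NMMA, also lay mostly in other clusters than untreated ones. Macrophages formed 1 cluster and mesenchymal cells 1 cluster over all libraries.

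**Figure D1:**
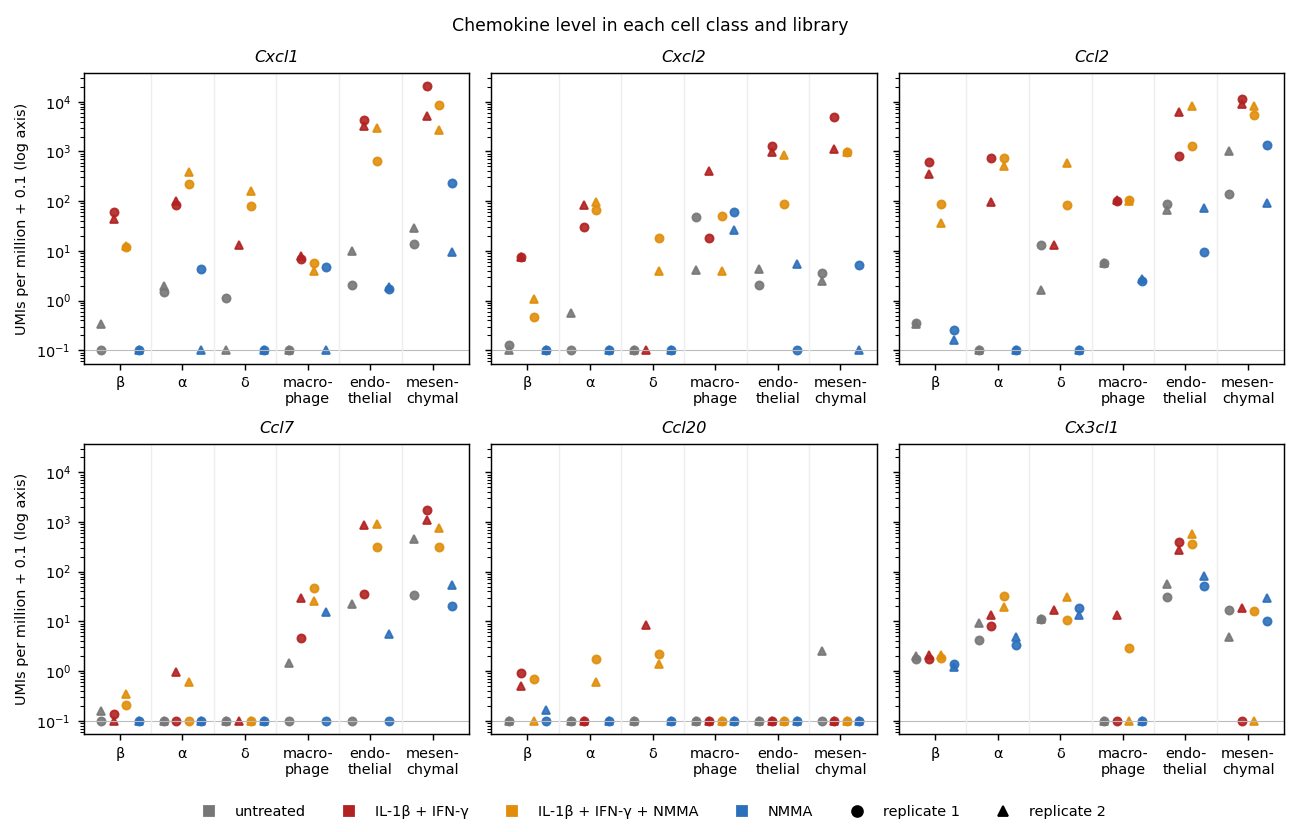
Level of the 6 chemokines in 6 cell classes, as CPM plus 0.1 on a log axis, with 1 point per library, colours for the conditions, and circles and triangles for replicates 1 and 2. Points on the line at the bottom had no UMI, and both replicates of β-cells with cytokines lie above those with cytokines and NMMA for *Cxcl1*, *Cxcl2* and *Ccl2*.

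With cytokines, *Ccl2* rose in β-cells from almost no UMIs to 612 and 350 CPM, and *Cxcl1*, *Cxcl2* and *Ccl20* rose beside it. *Cxcl1* and *Cxcl2* rose in α-cells, *Ccl2* in macrophages, *Cxcl1* and *Cx3cl1* in endothelial cells and *Cxcl2* in mesenchymal cells. Called were 4 of 5 members past the low-count filter in β-cells, where 46.2% of all tested genes passed, 2 of 4 in α-cells (21% of genes), 0 of 4 in δ-cells (6.36%), 1 of 3 in macrophages (4.24%), 2 of 5 in endothelial cells (6.38%) and 1 of 4 in mesenchymal cells (1.8%). The 10 calls were all increases, while the shares of genes, here and below, count calls in either direction. At an unadjusted p under 0.05 there were 17 of 25 member and class pairs, of which *Cxcl1* was the single one in δ-cells, and DESeq2 called 14 of 25, with 0 in δ-cells. Members that passed the filter only through the treated libraries had to differ, so these counts say little about the group. That was so for every call here except *Cx3cl1* in endothelial cells. The other called members held at most 13 UMIs over both untreated libraries of their class. These contrasts share their cytokine libraries with the one that chose *Cxcl1* and *Cxcl2*.

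*Cxcl1*, the neutrophil attractant KC, was at 0 and 0.242 CPM in untreated β-cells of replicates 1 and 2. It reached 61.2 and 43.3 with cytokines, 11.8 and 12.6 with cytokines and NMMA, and 0 in both libraries with NMMA alone. The cytokine and untreated libraries did not overlap, and the log2 change was 9.27 (SE 0.66, adjusted p = 0.000198). *Cxcl1* passed the low-count filter in β-cells only through libraries with cytokines, so it had to differ from untreated. Counted over both libraries, from 4 UMIs untreated, the ratio was 719 (95% counting interval 280.3 to 2640). The libraries with cytokines and NMMA lay between the others, 5.17-fold below cytokines alone in replicate 1 and 3.45-fold below in replicate 2.

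In α-cells *Cxcl1* stood at 1.37 and 1.91 untreated, 83.9 and 102 with cytokines, 219 and 386 with cytokines and NMMA, and 4.29 and 0 with NMMA. The cytokine increase was 5.73 on the log2 scale (SE 0.70, adjusted p = 0.00143). In α-cells, too, the gene passed the low-count filter only through libraries with cytokines, so it had to differ from untreated. Here NMMA went the opposite way to β-cells: the level was 2.61-fold higher with NMMA in replicate 1 and 3.76-fold higher in replicate 2. With each class scaled on its own, the α-cell level was 1.37 and 2.37 times the β-cell level with cytokines. With cytokines and NMMA it was 18.5 and 30.7 times that level. δ-cells gave 12.8 in their single cytokine library (3 UMIs) and 79.8 and 164 with cytokines and NMMA. Untreated δ-cells stood at 1.01 and 0, from 1 UMI. The difference between these groups passed (adjusted p = 2.22e-05), with a ratio of 190.99 (33.9 to 7581). *Cxcl1* passed the low-count filter in δ-cells only through treated libraries, so it had to differ. Those libraries also belong to the contrast that chose the gene. In cells with their own markers leading the difference was not called.

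*Cxcl2*, the neutrophil attractant MIP-2, had the same order of conditions as *Cxcl1* in β-cells. In β-cells it went from 0.0277 and 0 to 7.57 and 7.34 with cytokines (log2 change 8.22, SE 0.64, adjusted p = 4.88e-05, and a ratio of 394 with an interval of 70.1 to 15600 from 1 UMI untreated), and stood at 0.373 and 0.999 with cytokines and NMMA. That is 20.3-fold and 7.35-fold below cytokines alone, although the libraries with NMMA held only 7 and 12 UMIs. In α-cells it went from 0 and 0.477 to 30.1 and 85.7 (log2 change 7.41, SE 0.93, adjusted p = 0.00185, or 0.344 in cells with their own markers leading, and a ratio of 236 with an interval of 41.6 to 9397 from 1 UMI untreated), and was 66.4 and 95.2 with cytokines and NMMA. The α-cell values with and without NMMA overlapped, at a ratio of 2.21 in replicate 1 and 1.11 in replicate 2. A single α-cell held 111 of the 121 *Cxcl2* UMIs of replicate 1 with cytokines and NMMA. δ-cells had no *Cxcl2* UMI in the cytokine library and 17 and 3 with cytokines and NMMA. In each of these classes *Cxcl2* passed the low-count filter only through libraries with cytokines, so it had to differ from untreated.

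In the non-endocrine classes neither gene was called for NMMA. In endothelial cells *Cxcl1* went from 1.92 and 9.86 to 4268 and 3213 with cytokines and was 636 and 2949 with cytokines and NMMA. It passed the low-count filter there only through libraries with cytokines, so it had to differ from untreated. The cytokine increase was 9.13 (SE 1.22, adjusted p = 0.0242), but it did not pass in 6 of the 8 fits that each left out 1 library, those without an untreated library, one with cytokines alone or one with NMMA alone (adjusted p 0.0811 to 0.184). Endothelial *Cxcl2* went from 1.92 and 4.22 to 1261 and 994 (log2 change 8.33, SE 1.65, adjusted p = 0.0806), and was 87.2 and 860 with cytokines and NMMA. For both genes replicate 1 was far lower with NMMA (6.71-fold and 14.5-fold) and replicate 2 was close to its cytokine library (1.09-fold and 1.16-fold lower). The NMMA change of neither gene passed in endothelial cells (log2 changes -1.05, SE 0.78, and -1.19, SE 1.03, adjusted p = 0.999 for both). Without replicate 2 of cytokines with NMMA they came to -2.56 and -3.69 (adjusted p = 0.00261 and 0.00215).

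Mesenchymal cells held the highest levels of *Cxcl1* under cytokines among the 6 classes, at 20319 and 5247 after 13.7 and 29.0 untreated. With NMMA added they held 8750 and 2646. The cytokine change of 9.16 (SE 1.97) was not called (adjusted p = 0.126), while DESeq2 gave 3.09e-07. Mesenchymal *Cxcl2* went from 3.42 and 2.42 to 5004 and 1137 (log2 change 9.89, SE 1.09, adjusted p = 0.00199, and a ratio of 860 with an interval of 237 to 7108 from 2 UMIs untreated), with 996 and 998 when NMMA was added. Neither gene passed for NMMA (-1.17 and -1.62, adjusted p = 1). Mesenchymal *Cxcl2* passed the low-count filter only through libraries with cytokines, so it had to differ from untreated. Macrophages had the lowest *Cxcl1* levels of the 6 classes with cytokines, 6.70 and 7.97, from 3 UMIs in each library. Their *Cxcl2* ranged from 3.88 to 404 over the 8 libraries with no order by condition.

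**Figure D2:**
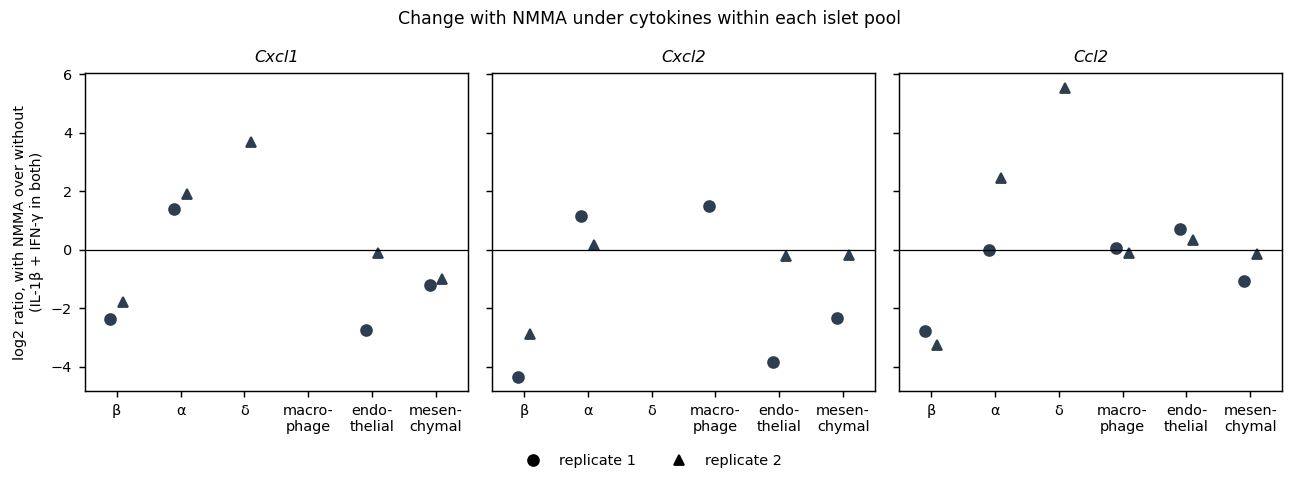
Change of *Cxcl1*, *Cxcl2* and *Ccl2* with NMMA under cytokines within each islet pool, as the log2 ratio of CPM with over without NMMA, for 6 classes and with circles and triangles for replicates 1 and 2. Points are drawn where both libraries held at least 3 UMIs. β-cells lie below 0 for all 3 genes in both replicates, and α-cells lie above 0 for *Cxcl1*.

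*Ccl2* (MCP-1), the main ligand of CCR2 on monocytes, was not among the 2 genes chosen by their response to the inhibitor, so its NMMA changes were tested. Like the other members, it was listed with earlier results of these data known. In β-cells it stood at 0.250 and 0.242 untreated, 612 and 350 with cytokines, 87.9 and 36.2 with cytokines and NMMA, and 0.153 and 0.0633 with NMMA. The cytokine increase was 10.89 (SE 0.73, adjusted p = 0.000116). *Ccl2* passed the low-count filter in β-cells only through libraries with cytokines, so it had to differ from untreated. With NMMA added the level was 6.96-fold lower in replicate 1 and 9.65-fold lower in replicate 2, a log2 change of -2.95 (SE 0.48, adjusted p = 0.0115). This was the single call among 3 tested members in β-cells, where 19.4% of genes passed, and it was -2.49 (adjusted p = 0.0632) without replicate 1 of the cytokine libraries. The gene remained far above untreated with cytokines and NMMA (7.94, SE 0.68, adjusted p = 0.000507).

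α-cells had no *Ccl2* UMI without cytokines. With cytokines they held 744 and 94.1 and with NMMA added 739 and 516, so the level was 1.01-fold lower in replicate 1 and 5.49-fold higher in replicate 2. Over both libraries the cytokine level was at least 378-fold above untreated, counting 3 UMIs over the untreated group. edgeR did not call this change (adjusted p = 0.146), while DESeq2 gave 6.62e-06. The NMMA change was 0.60 (SE 1.33, adjusted p = 0.849), where 10.7% of genes passed in α-cells, and 2.74 (adjusted p = 0.00085) without replicate 1 of the cytokine libraries. In δ-cells *Ccl2* stood at 12.8 with cytokines (3 UMIs) and at 84.0 and 597 with NMMA added (NMMA change 4.71, SE 3.15, adjusted p = 0.676, with 2.2% of genes called, and with 1 cytokine library).

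Macrophages gave close values of *Ccl2* in both replicates: 5.53 and 5.49 untreated, and 103 and 106 with cytokines. They held 107 and 99.0 with cytokines and NMMA, and 2.36 and 2.58 with NMMA alone. The untreated values came from 6 UMIs over both libraries and those with NMMA alone from 2, so their closeness says little. The cytokine increase of 4.18 (SE 0.41, adjusted p = 1.06e-05) kept its call in each of the 8 fits without a library. *Ccl2* passed the low-count filter in macrophages only through libraries with cytokines. It therefore had to differ from untreated, and the kept calls add little. NMMA changed it by -0.03 (SE 0.28, adjusted p = 0.999). Endothelial cells went from 86.4 and 66.2 to 804 and 6357 with cytokines and held 1313 and 8079 with NMMA added. The cytokine libraries lay above the untreated ones but far from each other, and the increase of 5.56 (SE 1.79) was not called (adjusted p = 0.236, DESeq2 0.00357). Mesenchymal cells held 140 and 1026 untreated, so they carried *Ccl2* before any cytokine, and 11370 and 8875 with cytokines (4.11, SE 1.47, adjusted p = 0.433). With NMMA added they held 5371 and 8043 (-0.59, SE 1.30, adjusted p = 1). In macrophages 0.0349% of genes passed for NMMA under cytokines, and in endothelial and mesenchymal cells 0%, with 365 and 175 genes at an unadjusted p under 0.05.

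Because classes were measured in the same libraries, their responses were compared with that of β-cells directly. The cytokine response of *Ccl2* was smaller in macrophages by 6.63 on the log2 scale (SE 1.01, adjusted p = 3.2e-08, with 5.95% of genes called for this difference). In mesenchymal cells it was smaller by 6.04 (SE 0.58, adjusted p = 8.49e-21, 1.7% of genes). DESeq2 gave adjusted p of 1.72e-08 and 2.29e-05. These fits took the library as a block and estimated the spread partly from other genes, so small p-values still rest on 2 pools. The cytokine responses of *Cxcl1* and *Cxcl2* in α-cells lay -2.86 (SE 1.46, adjusted p = 0.386) and -0.25 (SE 0.82, adjusted p = 0.931) from those of β-cells, where 3.4% of genes were called. The untreated levels of *Ccl2* differed, at 0.250 and 0.242 in β-cells (13 UMIs over both libraries). They were far higher in macrophages (6 UMIs) and mesenchymal cells. The NMMA response under cytokines was 3.05 higher in macrophages than in β-cells (SE 0.36, adjusted p = 3.72e-14, 0.702% of genes). For mesenchymal cells the same difference was 2.42 (SE 0.48, adjusted p = 0.000773, 0.259% of genes), but the adjusted p of DESeq2 was 0.652, and without replicate 1 of cytokines (2.16) or replicate 2 of cytokines with NMMA (1.46) it did not pass (adjusted p = 0.245 and 0.0745). For α-cells the difference was 4.16 (SE 1.08, adjusted p = 0.365, 1.61% of genes), which DESeq2 called (4.21, adjusted p = 0.0306), and for endothelial cells 3.44 (SE 2.28, adjusted p = 0.766, 1.55% of genes).

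*Ccl7* (MCP-3), a neighbour of *Ccl2* and another CCR2 ligand, was a gene of mesenchymal and endothelial cells and macrophages. In mesenchymal cells it stood at 34.2 and 452 untreated, 1781 and 1096 with cytokines, and 309 and 771 with NMMA added. In endothelial cells it stood at 0 and 22.5, 34.7 and 877, and 313 and 924 in the same order. Neither cytokine change passed (2.54, SE 1.11, adjusted p = 0.586, and 5.20, SE 1.99, adjusted p = 0.312). Macrophages held 0 and 1.37 untreated, 4.47 and 29.2 with cytokines and 47.8 and 25.2 with NMMA added. The last was an increase over untreated of 4.93 (SE 1.37, adjusted p = 0.0469), a ratio of 37.5 with an interval of 6.24 to 1531 from 1 UMI untreated, that was lost in each of the 4 fits without an untreated library or one with cytokines and NMMA (adjusted p 0.104 to 0.297). β-cells had 1 and 0 *Ccl7* UMIs with cytokines, where the same cells held 16006 and 5189 *Ccl2* UMIs.

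*Ccl20*, the ligand of CCR6, was rare. β-cells held 0 and 0 UMIs untreated, 21 and 6 with cytokines, 11 and 0 with cytokines and NMMA, and 0 and 1 with NMMA. Over both libraries the cytokine level was at least 11.5-fold above untreated, counting 3 UMIs over the untreated group, and the test called it (adjusted p = 0.017, and 0.103 without replicate 1 of the untreated libraries). *Ccl20* passed the low-count filter in β-cells only through libraries with cytokines, so it had to differ from untreated. Against untreated, cytokines with NMMA gave an adjusted p of 0.0755 in edgeR, which a block for the pool of islets brought to 0.00723. Macrophages and endothelial cells had no *Ccl20* UMI in any library.

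*Cx3cl1*, fractalkine, followed another pattern. Endothelial cells held 30.7 and 57.7 untreated, 392 and 279 with cytokines, 354 and 569 with cytokines and NMMA, and 51.0 and 82.7 with NMMA. The cytokine increase of 2.87 (SE 0.36, adjusted p = 8.16e-05) kept its call in each of the 8 fits without a library, and compared the *Fabp4* and *Timp3* clusters. It exceeded that of β-cells by 3.05 (SE 0.40, adjusted p = 6.3e-12, with 6.38% of genes called for this difference). β-cells held 1.66 and 1.88 untreated and 1.64 and 2.02 with cytokines (0.05, SE 0.28, adjusted p = 0.909). In α-cells *Cx3cl1* stood at 4.11 and 9.07 untreated, 7.91 and 13.4 with cytokines, and 31.8 and 19.8 with NMMA added. The last was 1.88 above untreated (SE 0.39, adjusted p = 0.00404, lost without replicate 1 of either group at adjusted p = 0.0819 and 0.0796). Against cytokines alone it was 1.18 higher (SE 0.42, adjusted p = 0.0784, or 0.0234 when pools were blocked). δ-cells ranged from 10.6 to 31.4 over 7 libraries.

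With cytokines and NMMA against untreated, 3 of 5 members passed in β-cells (22.6% of genes), 3 of 4 in α-cells (7.75%), 2 of 4 in δ-cells (9.21%), 2 of 3 in macrophages (6.01%), 2 of 5 in endothelial cells (6.61%) and 1 of 4 in mesenchymal cells (1.97%), all increases. This comparison shares its treated libraries with the contrast that chose *Cxcl1* and *Cxcl2*. Apart from *Cx3cl1*, the called members passed the filter in these classes only through treated libraries, so they had to differ. The α-cell calls were *Cxcl1* (7.42, SE 0.66), *Cxcl2* (7.80, SE 0.87) and *Cx3cl1*, and the endothelial ones *Cxcl1* (8.08, SE 1.19, adjusted p = 0.0299, or 0.0572 when pools were blocked, and called in 2 of the 8 fits without a library, with a largest adjusted p of 0.207) and *Cx3cl1* (3.36, SE 0.36). *Ccl2* in macrophages rose by 4.15 (SE 0.41, adjusted p = 8.37e-06). *Cxcl2* in mesenchymal cells (8.27, SE 1.06, adjusted p = 0.00337) was lost without untreated replicate 2 or either library with cytokines and NMMA (largest adjusted p 0.0697). The δ-cell call of *Cxcl2*, at least 6.37-fold above untreated counting 3 UMIs over that group, had an adjusted p of 0.0417 and was lost without either untreated library (0.272 and 0.134).

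With NMMA alone edgeR called 0 of the 25 tested member and class pairs, with 0 of them at an unadjusted p under 0.05. DESeq2 also called 0, with 2 at an unadjusted p under 0.05. edgeR called 0% of all genes in each class, with 77 to 934 genes at an unadjusted p under 0.05, and 436 genes in β-cells when pools were blocked, none of them a member. *Cxcl1* in mesenchymal cells stood at 232 and 9.62 with NMMA against 13.7 and 29.0 untreated, so the single high library came from replicate 1.

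The classes contributed unequally to each chemokine. β-cells held 87.6% and 51.8% of the *Ccl2* UMIs of kept cells in the cytokine libraries of replicates 1 and 2, being 85.9% and 56.6% of the kept cells. With NMMA added they held 37.7% and 5.38%, being 68.7% and 37.0% of the cells. Mesenchymal cells, 0.907% and 2.37% of the cells with cytokines, held 51.0% and 42.7% of the *Cxcl1* UMIs and endothelial cells 15.9% and 33.8%. For *Ccl7* the mesenchymal share was 96.0% and 48.1% and the endothelial share 2.78% and 49.8%. Endothelial cells held 54.9% and 61.0% of *Cx3cl1*. α-cells held 0.979% and 3.69% of *Cxcl1* with cytokines and 16.3% and 24.1% with NMMA added. Shares follow both the level and the number of cells of a class, and fewer cells of a class and less RNA per cell cannot be told apart in them.

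**Figure D3:**
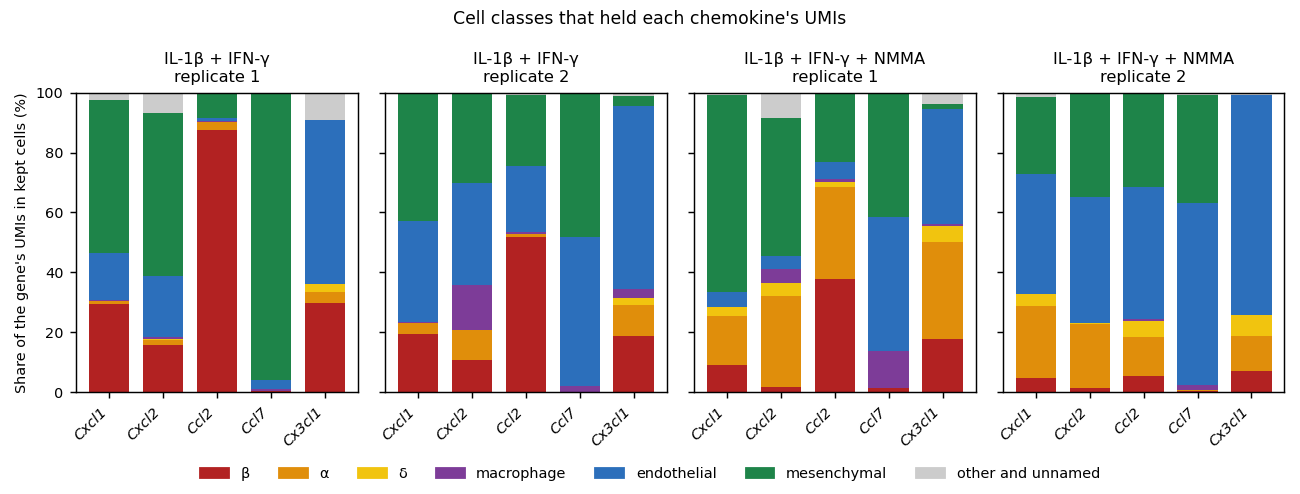
Share of each chemokine's UMIs in kept cells, in percent, held by the cell classes in the libraries with cytokines and with cytokines and NMMA, with a bar per gene and a panel per library. β-cells hold 87.6% and 51.8% of *Ccl2* with cytokines and 37.7% and 5.38% with NMMA, and mesenchymal and endothelial cells hold most of *Cxcl1* and *Ccl7*.

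RNA released from other cells can add UMIs to a droplet, so levels were set against markers, whose summed CPM are without TMM scaling. The chemokine levels are TMM-scaled within each class, so their percentages and ratios between classes carry that scaling. Markers of mesenchymal cells summed in β-cells to 0.00474 to 0.0357% of their level in mesenchymal cells over the 8 libraries, and those of endothelial cells to 0.0229 to 0.115%. With cytokines, *Ccl2* in β-cells was at 5.38% and 3.94% of the mesenchymal level, *Cxcl1* at 0.301% and 0.825% and *Cxcl2* at 0.151% and 0.646%. *Ccl7* in β-cells was at 0.00215% and 0%. α-cells carried β-cell markers at 12.4% and 12.9% of the β-cell level with cytokines, at 6.92% and 18.9% with NMMA added and at 3.15% and 9.28% untreated. With cytokines the α-cell level was 1.37 and 2.37 times that of β-cells for *Cxcl1*, and 1.22 and 0.269 times for *Ccl2*. Scaling matters here: *Ccl2* in α-cells of replicate 1 with cytokines stood at 744 CPM with TMM scaling and 552 without it. Among β-cells of replicate 1 with cytokines, cells with a *Cxcl1* UMI held 2.14 mesenchymal and endothelial marker CPM and cells without one 2.61. In replicate 2 these values were 2.44 and 3.996. With NMMA added the order was the other way, at 8.05 with and 6.79 without a *Cxcl1* UMI in replicate 1. In replicate 2 it was 10.9 with and 6.43 without. Cells with a *Cxcl2* UMI under cytokines held 1.01 against 2.58 (replicate 1) and 7.58 against 3.41 (replicate 2). The doublet caller marked 3.93% of β-cells with a *Cxcl1* UMI and 1.36% of those without one in replicate 1 with cytokines, and 1.87% and 1.72% in replicate 2. β-cell markers in macrophages summed to 18570 and 42824 CPM untreated and to 2318 and 6531 with cytokines, with 5 of 8 of them at 0 in both cytokine libraries, and in endothelial cells macrophage markers reached 1435 in replicate 1 with cytokines and NMMA against 1.85 to 15.9 in the other libraries. The part of these differences in the results was not tested.

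Expression was concentrated in few cells. After thinning each β-cell to 10000 UMIs, a *Ccl2* UMI was found in 35.8% of 1106 cells in replicate 1 (95% exact interval 33.0 to 38.7%) and in 33.0% of 476 in replicate 2 (28.8 to 37.4%) with cytokines. With NMMA added the shares were 17.0% of 624 (14.1 to 20.2%) and 10.7% of 355 (7.69 to 14.4%). Unthinned, at median depths of 24702 and 27397 UMIs, 44.0% and 39.3% held it with cytokines, and 27.0% and 19.0% with NMMA added. Intervals cover counting error only. *Cxcl1* was found in 10.3% and 13.2% of the thinned β-cells with cytokines (15.7% and 18.7% unthinned), in 4.49% and 5.63% with NMMA added, and in 0 of 1586 untreated cells of replicate 1, which allows a share of cells with a UMI at this depth of up to 0.189% (3 counts). *Cxcl2* was found in 2.08% and 2.10% with cytokines. The 5% of β-cells with the most *Ccl2* UMIs held 65.7% and 58.8% of them with cytokines, and the highest cell held 1060 and 280 UMIs.

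Macrophages had the lowest *Cxcl1* level with cytokines. They held a *Cxcl1* UMI in 5.88% of 34 cells and 7.69% of 39 with cytokines, at median depths of 14602 and 10901 UMIs. They were picked by that level, so their shares are no independent measure of background and may include their own expression. At 1000 UMIs per cell none of 32 and 37 macrophages held one, which allows shares with a UMI of up to 9.38% and 8.11%, and 2.65% and 2.65% of β-cells did at the same depth. At that depth the shares of the 2 classes could not be told apart. In α-cells thinned to 9000 UMIs the *Cxcl1* share was 23.3% of 43 cells and 13.8% of 58 with cytokines and 20.9% of 86 and 28.8% of 80 with NMMA added. Unthinned they were 32.7% and 15.7%, and 28.6% and 35.8% with NMMA added. At 1000 UMIs per cell they were 2.08% of 48 and 4.35% of 69 with cytokines and 14.4% of 97 and 16.8% of 95 with NMMA added. *Ccl2* was found in 30.2% and 13.8% of the α-cells at 9000 UMIs with cytokines and in 29.1% and 50% with NMMA added. Mesenchymal cells thinned to 1000 UMIs held *Cxcl1* in 72.7% of 11 cells and 70.8% of 24 with cytokines.

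*Ccl2* and *Cxcl1* were found more often in β-cells that also held *Nos2*, the inducible nitric oxide synthase. Among β-cells with cytokines at 10000 UMIs, *Ccl2* was found in 48.0% of 525 cells with a UMI of *Nos2* and in 25.6% of 581 cells without one in replicate 1. The shares were 53.8% of 210 and 19.2% of 266 in replicate 2. For *Cxcl1* they were 14.3% against 6.88% and 14.3% against 7.89%. With NMMA added the *Ccl2* shares were 19.5% against 10.5% in replicate 1 and 10.7% against 9.22% in replicate 2. These are descriptions of cells of the same libraries.

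β-cells of the cluster led by *Hspa1a* and other heat shock genes held little *Ccl2*. With cytokines this cluster had 15.4 CPM in 61 cells of replicate 1 and 12.2 in 106 cells of replicate 2, here without TMM scaling and so not on the scale of the class levels. The main cytokine clusters had 582 in 1036 cells and 327 in 430 cells. With NMMA added the heat shock cluster had 39.9 and 48.5 and the main clusters 102 and 36.8, so it stood below the main cluster in replicate 1 and above it in replicate 2. The main cluster of replicate 1 with NMMA, led by *Lcn2* (476 cells), was not that with cytokines, led by *Il4i1*. Within the *Lcn2* cluster *Ccl2* stood at 289 with cytokines (34 cells) and 102 with NMMA added, and within the *Il4i1* cluster at 582 and 43.8 (111 cells). *Cxcl1* in the heat shock cluster was at 22.8 and 3.92 with cytokines against 57.5 and 44.0 in the main clusters. A split by single cells with an *Hspa1a* UMI at 10000 UMIs did not show the same order, since *Ccl2* was found in 41.5% of cells with it and 32.1% without it in replicate 1, and in 37.7% and 31.3% in replicate 2. α-cells with cytokines lay mostly in a sub-cluster led by *Hspa1a* (49 of 49 and 57 of 70 cells) and α-cells with NMMA added in a sub-cluster led by *Saa3* (86 of 98 and 89 of 95), so their *Cxcl1* comparison is also a comparison of these sub-clusters.

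**Figure D4:**
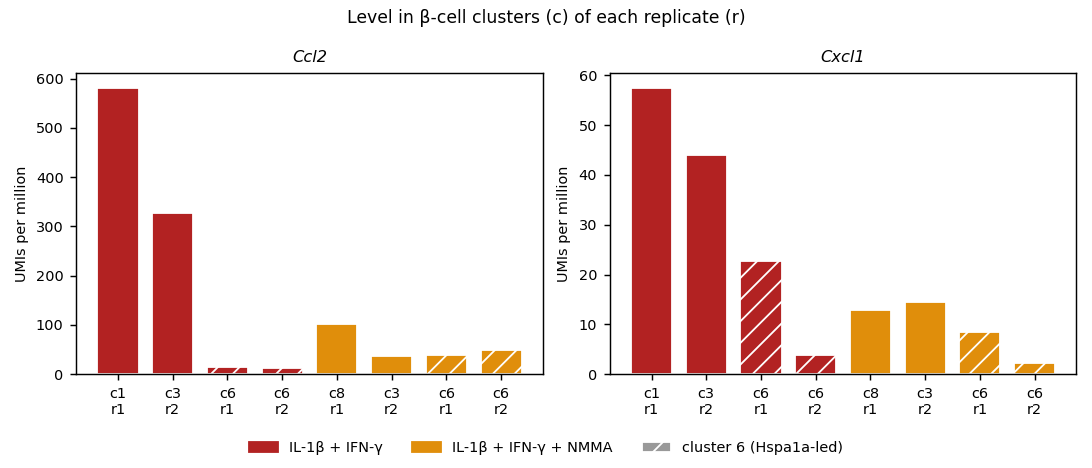
CPM, without TMM scaling, of *Ccl2* and *Cxcl1* in β-cell clusters (c) of each replicate (r), with red bars for cytokines, orange bars for cytokines with NMMA and hatched bars for the cluster led by *Hspa1a*. With cytokines the hatched *Ccl2* bars stand at 15.4 and 12.2 beside 582 and 327 in the main clusters.

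Regulators of these genes rose with cytokines in β- and α-cells. The shares of all genes given beside the counts cover both directions. Of 13 NF-κB subunits and feedback genes, 13 of 13 tested rose in β-cells, with a median log2 change of 2.19 beside 0.00 over all genes (46.2% of which passed), and 12 of 12 rose in α-cells, with a median of 2.25 beside -0.02 (21% of genes passed). Tested genes of the list that rose numbered 3 of 11 in δ-cells (median 1.58, with 6.36% of all genes called), 2 of 12 in endothelial cells (0.64, 6.38%), 1 of 13 in macrophages (0.74, 4.24%) and 2 of 9 in mesenchymal cells (1.29, 1.8%). In β-cells the largest changes were *Tnfaip3* (3.95, SE 0.22), which encodes the inhibitor A20, *Birc3* (3.48, SE 0.26) and *Nfkb2* (2.88, SE 0.25). With NMMA added to cytokines 4 of 13 passed in β-cells, where 19.4% of genes passed, *Nfkb2* (-1.03, SE 0.23), *Tnip1* (-0.73, SE 0.15) and *Rela* lower and *Bcl3* (0.69, SE 0.15) higher, and 0 of 12 passed in α-cells (10.7% of genes).

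Of 7 genes of mRNA decay and ligand shedding, 2 of 7 rose in β-cells with cytokines (median 0.28), where 46.2% of all genes passed, *Zc3h12a* (4.81, SE 0.29) and *Adam17* (1.78, SE 0.16), which sheds fractalkine, and 3 of 6 rose in α-cells (21% of genes), *Zc3h12a* (3.20, SE 0.63), *Adam17* (1.88, SE 0.41) and *Zfp36* (1.29, SE 0.30). With NMMA added to cytokines *Zc3h12a* (1.33, SE 0.21, adjusted p = 0.00549), *Zfp36* (0.70, SE 0.21) and *Adam10* (0.68, SE 0.16) rose in β-cells, 3 of 7 where 19.4% of genes passed, and *Zc3h12a* rose in α-cells (1.65, SE 0.37, adjusted p = 0.0102), 1 of 6 where 10.7% passed.

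Of 10 other attractants, 3 were tested in β-cells and 2 were called with cytokines (46.2% of genes), *Ccl8* (3.74, SE 0.92) and *Cxcl3*, which had no UMI untreated and 10 and 14 with cytokines. In mesenchymal cells 2 of 2 were called (1.8% of genes), both ligands of CXCR2. *Cxcl3* had no UMI in untreated mesenchymal cells and 17346 and 5240 CPM with cytokines, and *Cxcl5* went from 17.1 and 2.42 to 1766 and 5456. *Cxcl3* passed the filter in both classes only through treated libraries, so it had to differ. *Cxcl5*, and *Ccl12* in macrophages below, also started from low untreated levels, which limits their calls. In macrophages *Ccl12* (5.11, SE 0.68, from 3 UMIs untreated), a CCR2 ligand, was the call among 7 tested (4.24% of genes), and in endothelial cells 0 of 2 passed (6.38%). Receptors were scarce: 1 of 9 passed the filter in endothelial cells and 3 of 9 in macrophages, where *Ccr1* (1.28, SE 0.31) rose with cytokines and NMMA (6.01% of genes).

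Over the 47 sums of a class in a library, the genes most like *Cxcl1* were *C1s1* (Pearson r = 0.92), *Ccl2* (0.90) and *Fas* (0.85), and those most like *Cxcl2* were *Cxcl3* (0.88), *Cxcl1* (0.82) and *Sod2* (0.81). *Ccl2* was most like *Cxcl1*, *Psma7* (0.88) and *Mlkl* (0.86), and *Ccl7* was most like *Il6* (0.92), *Ptgs2* (0.85) and *Cxcl5* (0.85). *Cx3cl1* was most like *Fam43a* (0.83), *Klf7* (0.82) and *Arhgap29* (0.82). These sums share libraries and depths, so the correlations are descriptions, and *Ccl20* had too few UMIs.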

How the data were processed

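Single-cell RNA was measured in 8 libraries. Per the file headers, the authors made the deposited UMI counts per gene and barcode with Cell Ranger 3.0.0 for replicate 1 and 6.0.0 for replicate 2, and per the labels with mm10. The labels name the v2 kit of the library chemistry and the study's methods the v3 kit. The 30406 gene identifiers in both gene lists were used.

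Barcodes with at least 200 genes, at most 5500 (replicate 1) or 6500 (replicate 2) genes and at most 10% mitochondrial UMIs were kept. Cells were clustered (scanpy 1.11.5, leidenalg 0.10.2, 2000 variable genes without the members, 30 components, 20 neighbours, resolution 1) and clusters were named from fixed markers. A doublet caller marked 200 cells (1.84%), which stayed in. Raw counts were summed per class and library (at least 10 cells). edgeR 4.0.16 (R 4.3.3, TMM, low-count filter, quasi-likelihood) was fitted with all 4 conditions per class, without a term for the pool of islets. Benjamini-Hochberg adjustment covered all genes, with a threshold of 0.05, and differences between classes were interaction terms. The fits were tested on simulated data. For shares, each cell was thinned to a fixed depth for its class, and exact Clopper-Pearson intervals (95%) and a floor of 3 counts were used.

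The replicate numbers mark the pool of islets. Same-numbered sums deviated together, with a median correlation between 0.229 (mesenchymal) and 0.663 (β-cells) and a lowest of 0.121. The Cell Ranger version also differed by replicate number, so this correlation cannot tell the pool from the processing. With 2 pools, each test estimated the spread of a gene partly from other genes, and differences between classes took the library as a block. The p-values rest on these 2 pools alone.

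The members and gene lists were chosen with earlier results of these data known. Named besides the members were the called genes of a list with the 3 largest changes in a comparison and the 3 genes most like a member by Pearson correlation of log2(CPM + 1). *Rela* was named as the remaining call of 4, and *Ccl20*, with under 200 UMIs, got no such genes. Tests of *Cxcl1* and *Cxcl2* for NMMA in endocrine cells, and of the differences of that response from β-cells, were left out because these values chose them. Alternatives were DESeq2 1.42.0, its size factors, scaling by total UMIs, no filter, the replicate as a block, a minimum of 5 cells, resolution 2, doublets removed, cells with their own markers leading, and leaving out each library. The result of 1 gene of the receptor list is not reported here.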

Additional observations from a re-analysis of the deposited data

Results flagged for a closer look

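The following results differed between classes by a test of the difference itself, and no explanation was weighed. The cytokine response of *Ccl2* differed from that in β-cells by -6.63 on the log2 scale in macrophages and by -6.04 in mesenchymal cells. The cytokine response of *Cx3cl1* was 3.05 higher in endothelial cells than in β-cells. The NMMA response of *Ccl2* under cytokines was 3.05 higher in macrophages and 2.42 higher in mesenchymal cells than in β-cells. With 2 libraries a group, single samples were not tested as outliers.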

How the results depend on the processing

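No named call changed direction under any alternative run. The NMMA response under cytokines gave 1 member call, and 2 when libraries were scaled by total UMIs, without the filter on low counts, with the replicate block, at resolution 2 and in cells with their own markers leading. In each of these 5 the added call was *Cx3cl1* in α-cells (adjusted p 0.0178, 0.0392, 0.0234, 0.0338 and 0.0290). Leaving out a library gave 1 to 3 such calls, 8 to 11 for cytokines, 9 to 14 for cytokines with NMMA, 0 to 0 for NMMA alone, 3 to 4 class differences of the cytokine response and 1 to 3 of the NMMA response. In cells with their own markers leading, NMMA alone gave 2 calls against 0, *Ccl2* (-2.75) and *Ccl7* (-2.15) in mesenchymal cells, and 1 class difference of the NMMA response against 2. This alternative left 62 of 215 mesenchymal cells and 3 mesenchymal libraries with at least 10 cells, both untreated ones and replicate 2 of NMMA (14 cells), so these calls rest on 1 NMMA library and the mesenchymal class difference could not be fitted. It also ended 4 of 24 named calls, *Cxcl2* in α-cells with cytokines (adjusted p = 0.344) and with cytokines and NMMA (0.503), and, with cytokines and NMMA, *Cxcl1* in δ-cells (0.156) and *Ccl7* in macrophages (0.0511). A minimum of 5 cells ended that of *Cxcl2* in δ-cells (0.0803), and fitting without the low-count filter that of *Cxcl1* in endothelial cells (0.0606), both with cytokines and NMMA. The share of β-cells with a UMI under cytokines, as a mean of the libraries, went from 11.8% to 17.2% unthinned and 2.65% at 1 common depth for *Cxcl1*, from 2.09% to 3.20% and 0.265% for *Cxcl2*, and from 34.4% to 41.6% and 14.6% for *Ccl2*, as depth sets what can be seen. The replicate block changed no other call than those given beside their results. DESeq2 did not call 4 of 29 named results, among them *Ccl7* in macrophages (0.0654) and *Cx3cl1* in α-cells (0.0527). Total UMIs, DESeq2's size factors, resolution 2 and removed doublets changed none of the named calls they gave a value for. Other causes were not tested.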

Other observations

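*Ccl20* was also found outside the 6 classes. In replicate 1 with cytokines, 7 ductal cells (median 23896 UMIs) held 24 of the 45 *Ccl20* UMIs of kept cells, 53.3%. In replicate 2 untreated, 543 barcodes named ductal (median 783 UMIs) held 23 of 27. Of these, 541 lay in a cluster led by *AY036118*, with 1 ductal marker among its 10 leading genes. Insulin genes stood there at 231715 CPM without TMM scaling, against 13164 in the other ductal cluster. The ductal name is therefore weak for these barcodes. Ductal cells of replicate 1 held none in 27 untreated cells and none in 12 cells with cytokines and NMMA. The number of ductal cells ranged so widely between libraries that no comparison between conditions was made.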
